A study of Sus scrofa with 18 samples.

Results

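A total of 64 zinc finger genes made up the set described here, out of 250 genes that the deposited pig gene tables name ZNF followed by a number. A gene entered the set when its level reached 5 FPKM (fragments counted per length of transcript and per size of library, the deposited unit) in at least 3 of the 18 libraries, and the other 186 stayed below that level. The tables list 24358 genes, of which 7101 passed the same level. ZNF790 sat just inside the level, where the lowest of its 3 highest values was 5.18 FPKM, and ZNF317 just outside it, where that value was 4.998 FPKM. Because the measured levels chose the members, the levels themselves and their order over stages are given as a description.

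The libraries came from pig embryos cloned by somatic cell nuclear transfer: a cell cultured from the ear of Diannan miniature pigs supplied the nucleus, and an enucleated oocyte matured in vitro received it. The vitrified embryos (VZ) had been cryopreserved at the zygote stage by ultrarapid cooling and warmed before further culture, and the fresh embryos (FZ) were cultured without cryopreservation, so that all groups share nuclear transfer and in vitro culture. Each of the 6 groups, vitrified and fresh at the 2-cell (24 h), 4-cell (48 h) and blastocyst (144 h) stages, held 3 libraries. A library pooled 4 embryos at the 2-cell stage and 2 at the 4-cell stage and held 1 blastocyst. Every value thus covers all cells of the embryos in a library, relative to the size of that library. Fewer cells expressing a gene, less of its RNA per cell and more RNA of other genes cannot be told apart.

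The ZNF genes encode proteins with runs of zinc fingers, small folds held by a zinc ion that contact DNA or, in some members, RNA. Many of them also carry a KRAB domain, which recruits the corepressor TRIM28 together with the histone methyltransferase SETDB1, and these KRAB proteins are known in early mammalian embryos for silencing transposable elements and for guarding imprinted regions. A SCAN domain, found in another group, binds other SCAN proteins. In the pig, the major activation of the embryonic genome is known to take place around the 4-cell stage, so 2-cell embryos hold mainly RNA laid down in the oocyte.

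The genes of the early embryo followed these labels in the libraries. The 8 measured maternal genes of a list of 10, among them GDF9 and ZP3, summed to between 981 and 2529 FPKM in the 2-cell and 4-cell libraries and to between 1.21 and 5.68 FPKM in blastocysts. A list of blastocyst genes summed to between 1983 and 3977 FPKM in blastocysts, while the donor fibroblast list did not exceed 10.3 FPKM and the cumulus list 4.83 FPKM in any library. Between 7551 and 8841 genes reached 1 FPKM per library. Vitrified 4-cell replicate 3 stood apart, with a mean correlation of 0.808 to the other 4-cell libraries against 0.895 to 0.914 for the other 5. In that library a list of genome activation genes summed to 697 FPKM, where the remaining 4-cell libraries held 43.9 to 199 FPKM. The blastocyst list summed to 185 FPKM there, against 5.43 to 57.4 FPKM. It held the lowest of the 6 values of its stage for 31 members and the highest for 15.

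The members were genes of the cleavage stages. The highest stage mean lay at the 2-cell stage for 27 members, at the 4-cell stage for 33 and in blastocysts for 4, that is 6.25% of the members, while blastocysts held the highest mean of 34.6% of all genes at the level. At least 3 libraries reached 5 FPKM for 47 of the 64 members at the 2-cell stage, for 50 at the 4-cell stage and for 11 in blastocysts. Of the 7101 genes at the level, 4894, 5133 and 4006 did so at these stages in the same order. The median of the member means was 7.87 FPKM in 2-cell embryos, 7.72 FPKM in 4-cell embryos and 0.963 FPKM in blastocysts, against 9.68, 10.3 and 6.23 FPKM at the same stages for all genes at the level. All 6 blastocyst libraries lay below all 12 earlier libraries for 41 members (64.1%), and this held for 37% of all genes at the level. They lay above all earlier libraries for 2 members, ZNF511 and ZNF414, with 22.9% of all genes at the level doing so. No blastocyst library reached 1 FPKM for 23 of the 64 members, against 1037 of the 7101 genes at the level.

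**Figure D1:**
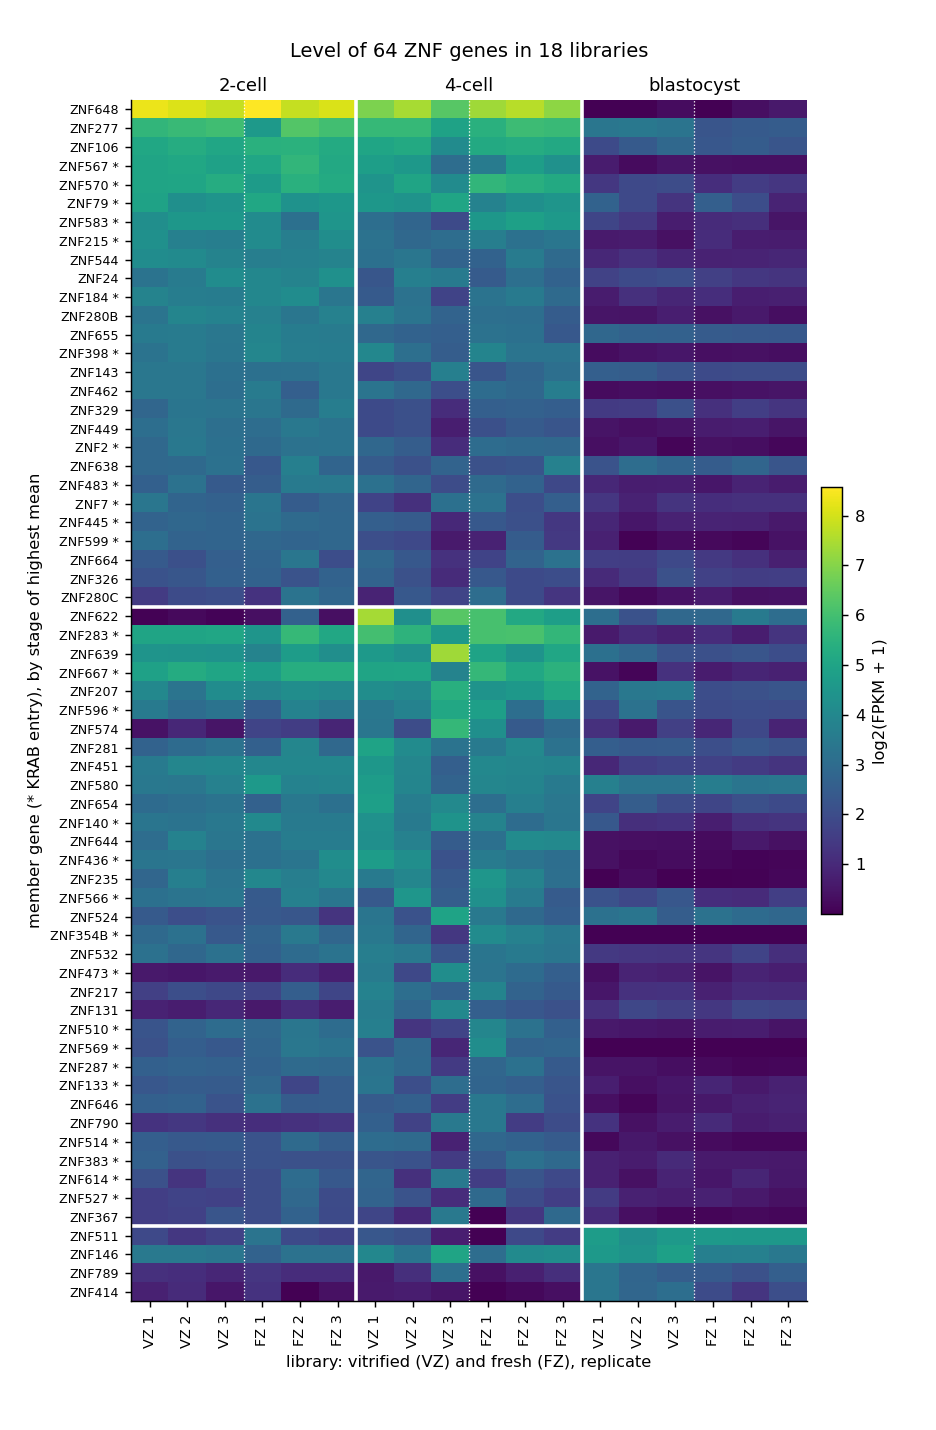
Level of the 64 members, one per row and grouped by the stage of their highest mean, in the 18 libraries, as log2(FPKM + 1) on the colour scale; an asterisk marks a KRAB entry. Most rows are bright in the 2-cell and 4-cell columns and dark in the 6 blastocyst columns, and only the 4 rows at the bottom are brightest in blastocysts.

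Summed over the 64 members, the 2-cell libraries held 939, 922 and 871 FPKM in vitrified embryos and 1006, 1013 and 978 FPKM in fresh embryos. The 4-cell libraries held 1054, 823 and 902 FPKM when vitrified and 1012, 959 and 850 FPKM when fresh. Blastocysts held 195, 178 and 187 FPKM when vitrified and 142, 146 and 133 FPKM when fresh. The 6 blastocyst libraries were thus all far below the 12 earlier libraries, and among blastocysts the vitrified libraries were all above the fresh ones. As a share of the summed FPKM of all genes, the members took 0.177 to 0.229% at the 2-cell stage, 0.139 to 0.196% at the 4-cell stage and 0.0185 to 0.0304% in blastocysts.

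ZNF648 (ENSSSCG00000015544) was by far the most abundant member at the cleavage stages. Its level was 321, 274 and 225 FPKM in vitrified and 379, 226 and 267 FPKM in fresh 2-cell embryos. At the 4-cell stage it was 116, 175 and 79.7 FPKM in vitrified and 163, 198 and 137 FPKM in fresh embryos. No blastocyst library exceeded 0.514 FPKM, and 3 of the 6 were listed at 0. The vitrified and fresh values overlapped at every stage, and the 2-cell values all lay above the 4-cell values. Over the 18 libraries its pattern was most like those of ZNF599 (Spearman's rho 0.93), ZNF184 (0.92) and ZNF449 (0.92), where the points share their stage, so that the correlation mainly follows the stages.

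The next members by mean level over all libraries, ZNF277, ZNF283, ZNF106, ZNF622, ZNF639, ZNF570, ZNF667, ZNF567 and ZNF79, included genes of unlike known function. ZNF277, known in mammals to act with Polycomb proteins at the Ink4a/Arf locus, averaged 54.3 ± 17.3 FPKM at the 2-cell stage, 48.5 ± 10.6 FPKM at the 4-cell stage and 6.78 ± 2.78 FPKM in blastocysts (SD, n = 6 libraries at each stage, as for the stage means that follow). ZNF106, an RNA-binding protein, averaged 38.0 ± 4.57, 32.2 ± 7.94 and 4.34 ± 1.17 FPKM at these stages in the same order. Neither separated 2-cell from 4-cell libraries. Among all members, the 4-cell libraries lay wholly above the 2-cell libraries for 5 (8.37% of all genes at the level) and wholly below for 8 (9.9%).

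The KRAB genes among these abundant members were low in blastocysts. ZNF283 averaged 33.6 ± 10.1 FPKM at the 2-cell stage, 52.6 ± 17.3 FPKM at the 4-cell stage and 0.916 ± 0.343 FPKM in blastocysts. ZNF567 averaged 35.1 ± 6.88, 18.9 ± 8.11 and 0.336 ± 0.130 FPKM at the 3 stages, and ZNF667 averaged 33.8 ± 5.73, 34.1 ± 12.9 and 0.645 ± 0.433 FPKM. ZNF570 averaged 34.1 ± 6.03, 32.4 ± 12.5 and 1.97 ± 0.702 FPKM, and ZNF79 averaged 23.9 ± 6.11, 21.1 ± 6.24 and 3.08 ± 1.85 FPKM.

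Of the 27 members highest at the 2-cell stage, a few stood out from the later stages. By the ratio of the top stage mean to the next one, the leading members were ZNF449, ZNF599, ZNF329, ZNF648, ZNF567 and ZNF24. ZNF449, a SCAN gene, had 7.53, 9.42 and 7.80 FPKM in vitrified and 7.27, 9.72 and 8.68 FPKM in fresh 2-cell embryos, and its 12 later values did not exceed 4.51 FPKM. ZNF599, a KRAB gene, had 7.64, 5.66 and 5.73 FPKM in vitrified and 6.28, 5.78 and 6.24 FPKM in fresh 2-cell embryos, and reached at most 4.68 FPKM later. These 2 members reached the level only at the 2-cell stage. ZNF24, a SCAN gene, averaged 13.8 ± 3.71 FPKM at the 2-cell stage, 7.38 ± 3.31 FPKM at the 4-cell stage and 2.22 ± 0.655 FPKM in blastocysts, and ZNF329 averaged 8.57 ± 1.88, 3.76 ± 1.66 and 1.94 ± 0.691 FPKM. The pattern of ZNF449 was most like that of ZNF567 (rho 0.94), then ZNF648 (0.92) and ZNF445 (0.91), a KRAB gene known for imprint control in mammals.

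By the same ratio, ZNF622, ZNF574, ZNF473, ZNF131, ZNF790 and ZNF639 led the 33 members highest at the 4-cell stage. The first 5 averaged 0.623 to 1.39 FPKM at the 2-cell stage, while ZNF639 already averaged 19.5 ± 3.99 FPKM there. ZNF622 (ENSSSCG00000016793), a factor in the maturation of the large ribosomal subunit, had 0.0439, 0.174 and 0.0715 FPKM in vitrified and 0.273, 5.26 and 0.289 FPKM in fresh 2-cell embryos. At the 4-cell stage it had 168, 18.3 and 80.5 FPKM in vitrified and 66.5, 34.9 and 27.1 FPKM in fresh embryos. Blastocysts had 7.46, 3.48 and 6.43 FPKM when vitrified and 6.49, 10.2 and 7.41 FPKM when fresh. All 4-cell values thus lay above all 2-cell and all blastocyst values, and the vitrified 4-cell libraries held both the highest and the lowest of them. Its pattern was most like those of ZNF131 (rho 0.90), ZNF574 (0.85) and ZNF473 (0.75).

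ZNF473, which codes for a protein of histone pre-mRNA processing, was at 0.623 ± 0.258 FPKM at the 2-cell stage, 8.601 ± 5.11 FPKM at the 4-cell stage and 0.592 ± 0.229 FPKM in blastocysts. ZNF131, a BTB domain protein, was at 0.758 ± 0.224, 7.54 ± 4.64 and 2.07 ± 0.531 FPKM. For both genes every 4-cell library lay above every 2-cell library. ZNF574 and ZNF790 reached the level only at the 4-cell stage, as did ZNF473, ZNF131 and ZNF217, a partner of the CoREST complex with a 4-cell mean of 8.24 ± 4.06 FPKM.

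Vitrified 4-cell replicate 3 shaped the 4-cell means of some of these genes. ZNF639 had 160 FPKM in that library and 19.4 to 33.0 FPKM in the remaining libraries of the stage, and its 4-cell mean of 47.8 ± 55.4 FPKM became 25.3 ± 6.04 FPKM without it. ZNF574 had 51.3 FPKM there and 2.99 to 18.1 FPKM elsewhere at the stage, so that its mean of 15.5 ± 18.3 FPKM became 8.30 ± 5.97 FPKM. All 6 leading members kept the 4-cell stage as their highest without that library, while 5 other members moved to another stage: ZNF570 and ZNF664 to 4-cell, ZNF524 to blastocyst, and ZNF614 and ZNF367 to 2-cell.

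**Figure D2:**
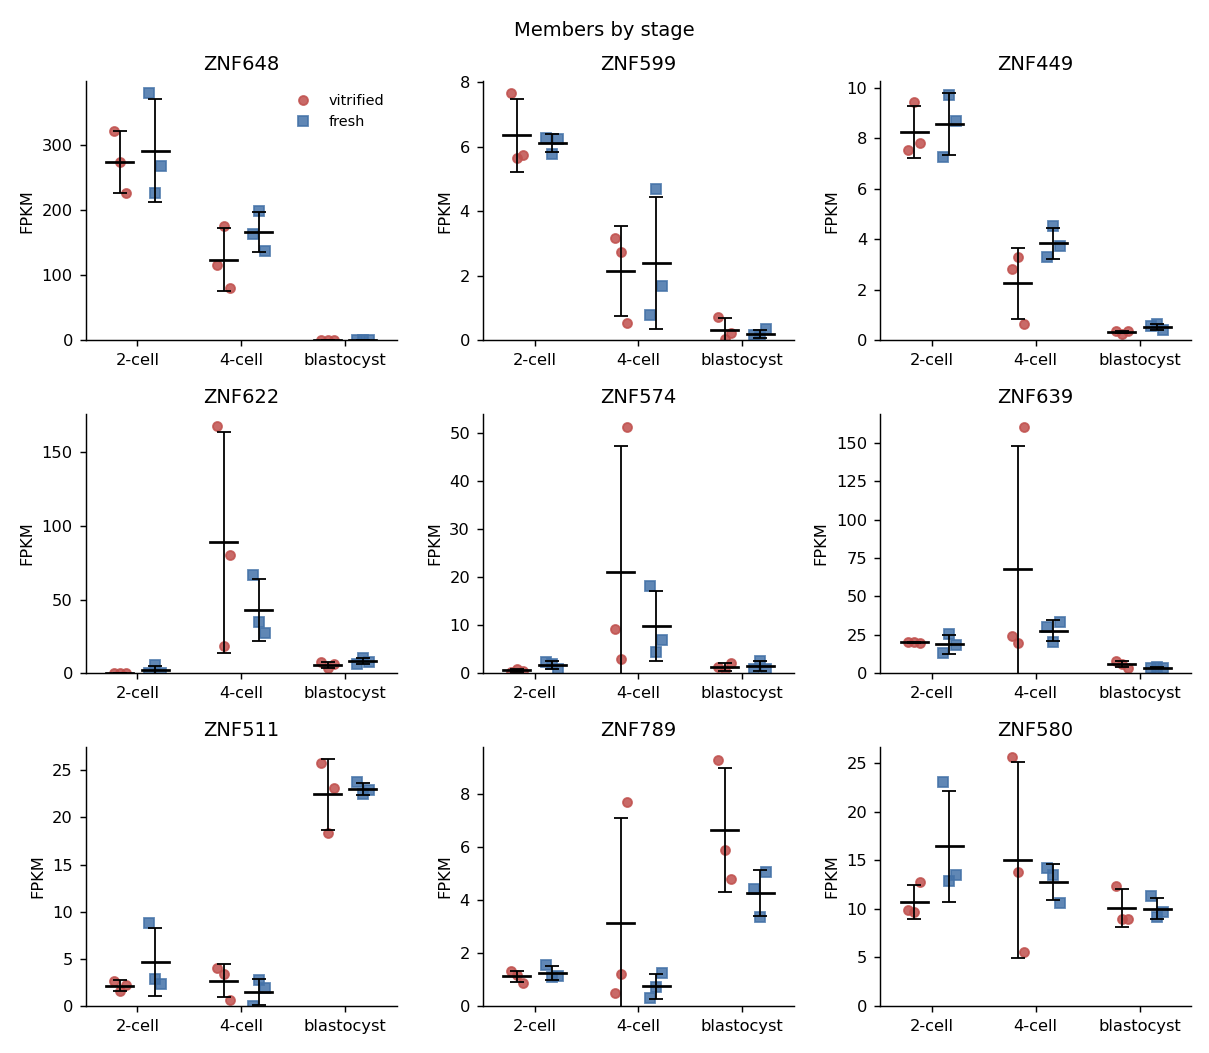
FPKM of 9 members by stage (points are libraries, vitrified at the left of each pair, and black lines give the mean ± SD of 3 libraries). ZNF648, ZNF599 and ZNF449 lie highest at the 2-cell stage, ZNF622, ZNF574 and ZNF639 at the 4-cell stage with one or more outlying vitrified libraries, ZNF511 and ZNF789 in blastocysts, and ZNF580 has values of like size at all 3 stages, with its vitrified points below its fresh points at the 2-cell stage.

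Only ZNF511, ZNF414, ZNF789 and ZNF146 were highest in blastocysts, and none of them has a KRAB entry. ZNF511 had 25.8, 18.4 and 23.2 FPKM in vitrified and 23.7, 22.5 and 22.9 FPKM in fresh blastocysts, and at most 8.76 FPKM in the 12 earlier libraries. Its blastocyst values did not separate vitrified from fresh embryos. ZNF789 had 9.29, 5.88 and 4.79 FPKM in vitrified and 4.40, 3.36 and 5.06 FPKM in fresh blastocysts, and 0.303 to 1.56 FPKM earlier except for 7.69 FPKM in vitrified 4-cell replicate 3. ZNF146, known as OZF and made up almost wholly of zinc fingers, averaged 8.599 ± 1.71 FPKM at the 2-cell stage, 15.9 ± 8.32 FPKM at the 4-cell stage and 17.6 ± 7.44 FPKM in blastocysts. Its rank rests on the vitrified libraries, which averaged 18.2 FPKM at the 4-cell stage and 23.9 FPKM in blastocysts, while fresh libraries averaged 13.6 and 11.3 FPKM at these stages. The pattern of ZNF511 was most like that of ZNF414 (rho 0.79), with ZNF789 (0.55) and ZNF146 (0.25) next.

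Few members were steady over the stages. Only ZNF146 and ZNF580 reached the level in all 18 libraries. ZNF580 varied least of all members, with a coefficient of variation of 39.0% over the 18 libraries, and averaged 13.6 ± 4.90, 13.9 ± 6.61 and 10.04 ± 1.43 FPKM at the 3 stages. It was followed by ZNF655 (40.4%), ZNF326 (45.0%), a subunit of the DBIRD complex that links mRNA splicing to transcription, and ZNF638 (45.6%), known for silencing unintegrated retroviral DNA.

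The rule admitted members through the stage where they are high, so a stage difference was tested only where a member had 5 FPKM or more in at least 3 libraries at both stages compared. A member counted as higher or lower with a Benjamini-Hochberg adjusted p under 0.05 over all genes tested in limma and a difference over 1 on the scale of log2(FPKM + 1), the scale of every difference that follows. Between 4-cell and 2-cell embryos, none of 41 such members passed, against 6.97% higher and 13.1% lower among all genes chosen alike. In limma, 16 of the 41 had an unadjusted p under 0.05 and 11 an adjusted p under 0.05. The shares of genes chosen alike past these p thresholds were not calculated, so these counts have no background. Of the 11, 3 were higher and 8 lower at the 4-cell stage, all with a difference under 1. The largest of these differences were -0.99 for ZNF648 (SE 0.22, limma adjusted p = 0.00258), -0.97 for ZNF567 and -0.91 for ZNF184. Upward, the largest among the 11 was 0.80 for ZNF281, a repressor linked to pluripotency (limma adjusted p = 0.0365). ZNF596, which was not among the 11, differed by 0.83 (limma adjusted p = 0.0765). The members' median difference was -0.12, with -0.25 for all genes chosen alike.

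Between blastocysts and 4-cell embryos, 3 of 7 members at the level at both stages were lower in blastocysts, with 29.4% lower and 28.8% higher among all genes chosen alike. They were ZNF622 (-2.75, SE 0.47), ZNF277 (-2.72, SE 0.25) and ZNF207 (-1.94, SE 0.25), the last of which encodes BuGZ, a kinetochore protein that binds BUB3. ZNF655, ZNF524, ZNF146 and ZNF580 had differences between -0.32 and 0.18. Between blastocysts and 2-cell embryos, 3 of 6 members were lower, against 33.8% lower and 27% higher in the background. These were ZNF277 (-2.83, SE 0.25), ZNF207 (-1.26, SE 0.25) and ZNF655 (-1.03, SE 0.18). ZNF146 differed by 0.88 in the other direction (SE 0.27, limma adjusted p = 0.00556), and ZNF638 (-0.38) and ZNF580 (-0.35) did not pass. The last of these counts depended on the scale: after quantile normalization or median ratio scaling, 1 member was lower and 1 higher.

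A wider choice of members, made after these results were seen, took those at the level at the stage left out of the comparison, so that neither stage compared had chosen them. Of 47 members at the level in 2-cell embryos, 39 were lower in blastocysts than in 4-cell embryos and none was higher, against 60.9% lower and 13.6% higher among all genes chosen alike. The members' median difference was -2.20, beside -1.58 for those genes, and the median of all genes tested was -0.48. Of 50 members at the level in 4-cell embryos, 40 were lower in blastocysts than in 2-cell embryos and 1 was higher, against 57.5% lower and 18.2% higher. The largest falls were those of ZNF648 (-6.92 against the 4-cell stage and -7.91 against the 2-cell stage, SE 0.22 for each), ZNF283 (-4.74 against the 4-cell stage), ZNF567 (-4.74 against the 2-cell stage) and ZNF667 (-4.35 and -4.43). ZNF622, at 2.31, was the single member higher in blastocysts than in 2-cell embryos (SE 0.47, limma adjusted p = 0.000209). Of 11 members at the level in blastocysts, ZNF622 (5.05) and ZNF524 (1.13) were higher in 4-cell than in 2-cell embryos and none was lower, against 15.1% higher and 8.66% lower.

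These counts held under other settings. Over 24 alternatives, which left out each library in turn or changed the scaling, the pseudocount or the libraries used, the first count ranged between 35 and 41 of 47 and the second between 34 and 41 of 50. The lowest first count came from median ratio scaling, and the lowest second count from both scalings and from vitrified libraries alone. Under median ratio scaling and quantile normalization 4 members, rather than 1, were higher in blastocysts than in 2-cell embryos. Without vitrified 4-cell replicate 3 the first count was 39 and the second 40.

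The members were split by the orthology annotation that the deposited tables carry. A KRAB entry was given for 28 members, 4 of which also had a SCAN domain named, and no KRAB entry for 36. Of these 36, 31 had no orthology entry of any kind. The lack of a KRAB entry thus does not show that the protein lacks the domain. Of the 106 ZNF genes with a KRAB entry 26.4% were members, and of the 144 without one 25.0%. At the cleavage stages the medians were near each other. The median of the means was 7.58 FPKM with a KRAB entry and 8.09 FPKM without one at the 2-cell stage, and 7.91 and 7.72 FPKM at the 4-cell stage. In blastocysts it was 0.631 FPKM with a KRAB entry and 2.05 FPKM without one. All blastocyst libraries lay below all earlier ones for 23 of 28 members with a KRAB entry and for 18 of 36 without one. None of the 28, and 11 of the 36, reached 5 FPKM in 3 or more blastocyst libraries, against 4006 of the 7101 genes at the level.

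On the choice by the stage left out, all 22 members with a KRAB entry were lower in blastocysts than in 4-cell embryos, with a median difference of -2.48, as were 17 of 25 without one, with a median of -1.88. Against 2-cell embryos, 22 of 23 with a KRAB entry were lower, the exception being ZNF473 (-0.03), and 18 of 27 without one, against the 57.5% given above. Over the same 24 alternatives both KRAB counts ranged between 20 and 22. The difference between members with and without a KRAB entry was not itself tested. ZNF354B and ZNF569, both KRAB genes, lay lowest: ZNF569 had 3.37, 4.88 and 4.14 FPKM in vitrified and 5.88, 9.46 and 8.67 FPKM in fresh 2-cell embryos and was listed at 0 in all 6 blastocyst libraries. ZNF354B averaged 9.34 ± 5.15 FPKM at the 4-cell stage, and no blastocyst library exceeded 0.0233 FPKM.

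**Figure D3:**
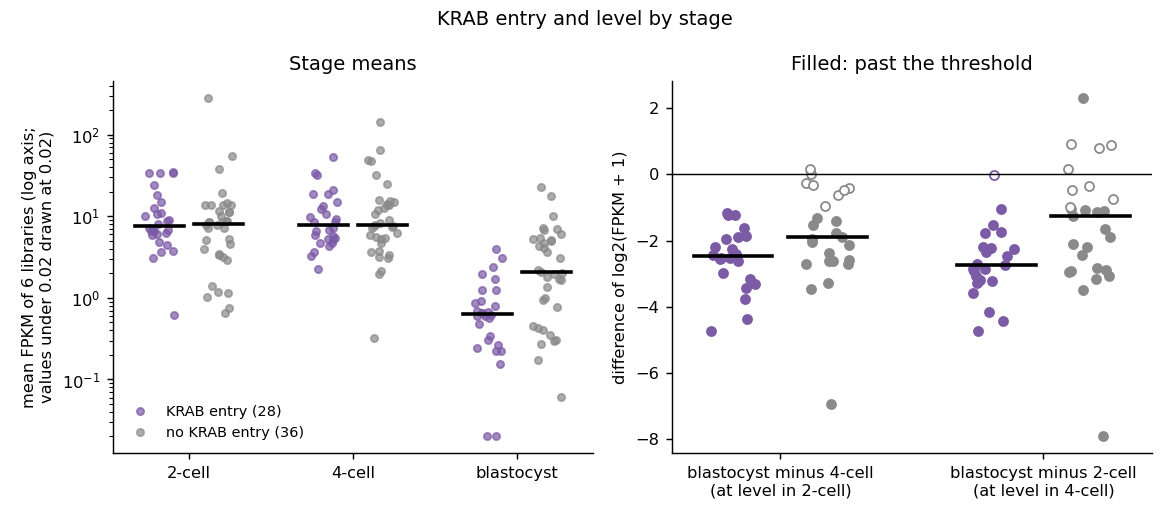
Left, stage means over 6 libraries of the 28 members with a KRAB entry and the 36 without one (FPKM, log axis, black line at the median). Right, differences in log2(FPKM + 1) of blastocysts from 4-cell and from 2-cell embryos for members at the level at the stage left out, filled where past the threshold: the KRAB points are filled apart from ZNF473, and the medians lie at -2.48 and -2.75 with a KRAB entry and at -1.88 and -1.26 without one.

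The partners of KRAB proteins, and the imprint readers listed with them, took both directions over the stages. The list of corepressors and imprint readers held 19 symbols, with TASOR also entered under its former symbol FAM208A, and 16 were in the tables. In blastocysts 4 of these 16 were higher and 12 lower than in 2-cell embryos, against 27.3% higher and 39.1% lower among all genes tested. TRIM28, the corepressor that KRAB domains bind, averaged 1.75 ± 0.590 FPKM at the 2-cell stage, 4.79 ± 3.82 FPKM at the 4-cell stage and 11.7 ± 0.944 FPKM in blastocysts, 2.23 higher than at the 2-cell stage (SE 0.29). The histone deacetylases HDAC1 (2.18) and HDAC2 (1.20) were higher too. So was the imprint reader ZFP57 (1.53), itself a zinc finger gene rather than a partner. SETDB1 averaged 22.7 ± 2.94, 12.2 ± 4.44 and 0.636 ± 0.596 FPKM at the 3 stages with a difference of blastocysts from 2-cell embryos of -3.92 (SE 0.26). DNMT1, the maintenance DNA methyltransferase, averaged 2606 ± 294, 1530 ± 488 and 2.53 ± 1.36 FPKM (-9.62). The lower members also included PPHLN1 (-5.05) and TASOR (-1.60) of the HUSH silencing complex. After quantile normalization or median ratio scaling, the same 4 genes were higher and 6 of the 12 were lower.

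Among other zinc finger families, listed by name, 4 ZSCAN genes of 11 were tested and all 4 were lower in blastocysts than in 4-cell and in 2-cell embryos. Of 5 tested ZKSCAN genes, 3 were lower than in 2-cell embryos. Of 21 tested genes named ZBTB, 8 were lower and 2 higher in blastocysts than in 2-cell embryos, but 6 lower and 5 higher after quantile normalization or median ratio scaling. At the 4-cell stage 5 of them were higher than at the 2-cell stage, and 1 of these, ZBTB8OS, shares the name but is no zinc finger gene. Of 15 tested genes named ZFP, 5 were lower and 3 higher in blastocysts than in 2-cell embryos, against 3 and 3 after quantile normalization and 3 and 4 after median ratio scaling. Under both scalings 3 of the 4 ZSCAN genes were lower than in 4-cell embryos and all 4 lower than in 2-cell embryos, and 1 ZKSCAN gene was higher than in 2-cell embryos. Beside the shares of all genes given above, 37% were lower in blastocysts than in 4-cell embryos and 8.83% were higher at the 4-cell than at the 2-cell stage.

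Zinc finger genes often lie in clusters that arose by duplication. By Ensembl gene ID, or by symbol where no ID matched, 52 members could be matched to the RefSeq annotation of assembly Sscrofa11.1. Of these, 17 lie on chromosome 6. A zinc finger gene was the next protein-coding gene on at least one side for 22 of the 52 (42.3%), against 2.92% of all protein-coding genes, and 15 of these 22 had a KRAB entry. Neighbouring pairs within the set were ZNF2 with ZNF514, ZNF383 with ZNF527, and ZNF583 with ZNF667. Reads from similar copies in such clusters can be assigned to either, and how the authors treated reads with several positions is not given in the sources used here, so values of clustered members are less certain.

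The comparison of vitrified with fresh embryos asked, at each stage, whether cryopreservation at the zygote stage left a difference in these genes. Genes with 1 FPKM or more in at least 3 of the 6 libraries of a stage were fitted in limma. A gene counted at an unadjusted p under 0.05 with a difference over 1 in log2(FPKM + 1). The study set the same numbers on p-values and log2 fold changes from edgeR, so its threshold was not identical. Adding 1 FPKM shrinks differences between low values, so the cut used here is stricter for them. The p-values measure the spread between the 3 libraries of a group. ZNF414 passed the level only through vitrified blastocysts and was left out of the test. No member reached an adjusted p under 0.05 at any stage, so each call below rests on the unadjusted p.

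At the 2-cell stage none of 59 tested members passed, against 0.45% of all genes. Only ZNF569 (-0.80, unadjusted p = 0.00931, limma adjusted p = 1.00) and ZNF235 (-0.59, unadjusted p = 0.0492, limma adjusted p = 1.00) had an unadjusted p under 0.05, both lower in vitrified embryos, against 3.75% of all genes. With the replicate number as a block none passed either, against 0.58%. The vitrified libraries of ZNF569, given above, all lay below the fresh ones. Vitrified values lay wholly above fresh values for 2 tested members, ZNF146 and ZNF544, against 3.73% of all genes. They lay wholly below for 7 tested members (11.9%), against 5.72%. The members' median difference was -0.12 and that of all genes -0.05.

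At the 4-cell stage 2 of 63 members passed (3.17%), 1 higher and 1 lower, against 3.46% of all genes in either direction, 0.992% higher and 2.46% lower. The higher one, ZNF131, would not have met the level rule without its vitrified 4-cell libraries, so its call is not independent of how members were chosen. No further member had an unadjusted p under 0.05, against 3.72% of all genes. ZNF583 (ENSSSCG00000032086), a KRAB gene, had 7.62, 5.99 and 2.79 FPKM in vitrified embryos and 22.2, 28.2 and 23.1 FPKM in fresh embryos. The groups did not overlap, and the vitrified mean of 5.46 ± 2.46 FPKM compared with a fresh mean of 24.5 ± 3.24 FPKM (SD, n = 3 each, limma difference -2.05, SE 0.47, unadjusted p = 0.00175, limma adjusted p = 0.947). ZNF583 passed in each of the 6 fits that left out 1 library and under the other 8 alternatives, with differences between -2.30 and -1.71. At the 2-cell stage it had 17.97, 22.2 and 22.2 FPKM in vitrified and 16.7, 7.95 and 21.2 FPKM in fresh embryos, which overlapped, and no blastocyst library exceeded 2.499 FPKM. Its neighbour ZNF667 had 30.9, 31.5 and 13.2 FPKM in vitrified and 50.7, 34.2 and 44.2 FPKM in fresh 4-cell embryos, which did not overlap either (-0.83, unadjusted p = 0.122, limma adjusted p = 0.947).

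ZNF131 (ENSSSCG00000040959) was higher in vitrified 4-cell embryos, with 11.5, 6.32 and 14.9 FPKM, against 5.10, 4.00 and 3.38 FPKM in fresh ones (1.15, SE 0.47, unadjusted p = 0.0365, limma adjusted p = 0.947). Of the 4 libraries in which it reached the level, 3 were vitrified, so its entry into the set leaned on the group where it was high. It passed in only 1 of the 6 fits that left out a library, the one without vitrified replicate 2 (1.46). The differences were 1.08 and 0.90 without vitrified replicates 1 and 3, and 1.28, 1.13 and 1.04 without fresh replicates 1, 2 and 3, none of which passed. The count of 2 members became 6 without vitrified replicate 2, 3 without vitrified replicate 1 or 3, and 1 without any 1 of the fresh libraries.

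The replicate numbers paired the 4-cell libraries by their correlated deviations, although an unmatched pair was correlated to a like degree. With the replicate number as a block 4 members passed, 1 higher and 3 lower, against 5.54% of all genes. The added ones were ZNF354B, with 9.67, 5.996 and 1.61 FPKM in vitrified and 16.5, 12.6 and 9.69 FPKM in fresh 4-cell embryos (-1.23, blocked unadjusted p = 0.0257, limma), and ZNF569, with 3.53, 6.46 and 0.877 FPKM in vitrified and 17.3, 5.59 and 6.01 FPKM in fresh ones (-1.24, blocked unadjusted p = 0.0478, limma). ZNF354B separated the groups and ZNF569 did not. Among tested members, wholly separated values were found for 1 with vitrified higher, ZNF131, against 2.81% of all genes. They were found for 7 with vitrified lower (11.11%), against 8.34%. Of those 7, 6 were among the 28 tested members with a KRAB entry, ZNF583, ZNF354B, ZNF570, ZNF383, ZNF667 and ZNF2, and 1, ZNF329, among the 35 without one. ZNF383 reached the level in exactly 3 libraries, and its highest group mean was 6.46 FPKM in fresh 4-cell embryos. Its entry into the set, and so its place in this count, leaned on that group. At the 2-cell stage 5 of 27 with a KRAB entry and 2 of 32 without one were wholly lower. The spread within groups was wide at this stage, with a median coefficient of variation, over members with a group mean of 5 FPKM or more, of 53.8% in vitrified and 28.3% in fresh 4-cell embryos. The median of all genes was shifted by -0.16 there and that of the members by -0.19.

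**Figure D4:**
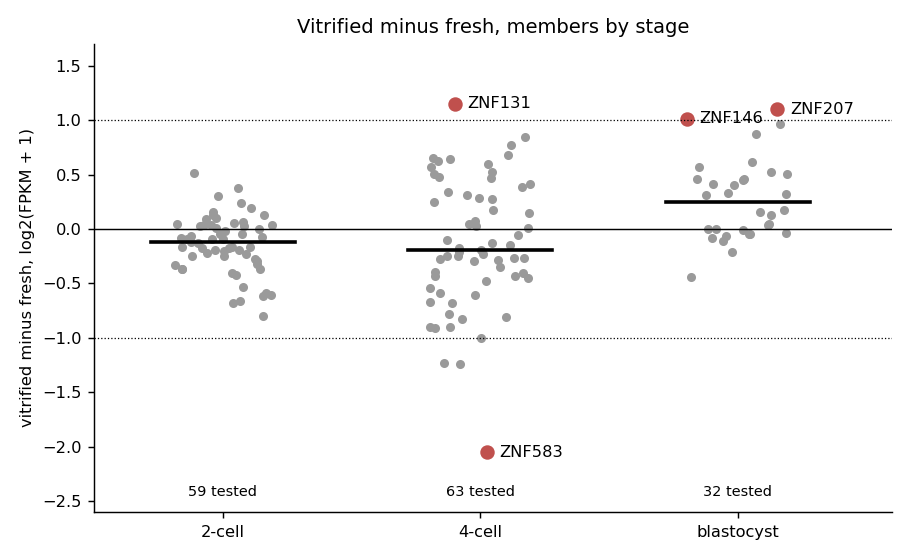
Difference of vitrified from fresh embryos in log2(FPKM + 1) for every tested member at each stage (59, 63 and 32 members), with the median as a black line and dotted lines at -1 and 1. Labelled points passed the threshold: ZNF131 and ZNF583 at the 4-cell stage and ZNF207 and ZNF146 in blastocysts, where the median lies at 0.24. ZNF131 met the level rule through its vitrified 4-cell libraries.

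In blastocysts 2 of 32 tested members passed (6.25%), both higher in vitrified embryos, against 2.26% of all genes in either direction 1.49% higher and 0.766% lower. ZNF207 had 5.70, 9.84 and 10.4 FPKM in vitrified and 3.04, 3.32 and 3.83 FPKM in fresh blastocysts (1.10, SE 0.25, unadjusted p = 0.00256, limma adjusted p = 0.132). ZNF146 had 23.95, 19.9 and 27.98 FPKM in vitrified and 11.9, 12.2 and 9.74 FPKM in fresh blastocysts (1.02, SE 0.20, unadjusted p = 0.000935, limma adjusted p = 0.115). Neither overlapped between the groups. Both differences fell short of 1 after quantile normalization (0.94 for ZNF207 and 0.82 for ZNF146) and median ratio scaling (0.96 and 0.86). They also fell short without vitrified replicate 3 (0.96 and 0.90), without vitrified replicate 2 for ZNF207 (0.996) and without fresh replicate 3 for ZNF146 (0.92). The count of 2 members became 1 without vitrified replicate 2 or 3 and 3 without fresh replicate 3.

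Other members lay on the same side in blastocysts. ZNF277 had 9.20, 9.91 and 8.71 FPKM in vitrified and 3.80, 4.38 and 4.67 FPKM in fresh blastocysts, a difference of 0.96 that missed the threshold (SE 0.18, unadjusted p = 0.000751, limma adjusted p = 0.113). ZNF566, a KRAB gene, had 3.47, 2.62 and 4.06 FPKM in vitrified and 1.15, 1.06 and 2.03 FPKM in fresh blastocysts (0.87, unadjusted p = 0.00635, limma adjusted p = 0.163). Together with ZNF664 and ZNF143, a promoter-binding factor, 6 members had an unadjusted p under 0.05 in limma, all higher in vitrified blastocysts, against 16.2% of all genes in either direction. ZNF414, not tested, had 9.25, 6.13 and 7.62 FPKM in vitrified and 2.89, 1.48 and 3.12 FPKM in fresh blastocysts.

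Vitrified values lay wholly above fresh values for 9 of the 32 tested members (28.1%) in blastocysts, against 17.3% of all genes, and wholly below for none, against 5.27%. Marker lists separated the same libraries. The 8 measured blastocyst genes summed to 3400, 2233 and 1983 FPKM in vitrified and 3707, 3581 and 3977 FPKM in fresh blastocysts, and the 4 measured genome activation genes to 292, 253 and 241 FPKM in vitrified and 167, 192 and 143 FPKM in fresh blastocysts, with no gene of either list at 0 in all libraries of either blastocyst group. Their part in the members' differences was not tested. The median of all genes was itself 0.11 higher in vitrified blastocysts and that of the members 0.24 higher. After quantile normalization the medians were -0.01 for all genes and 0.10 for the members, with 17 of 32 members above 0 instead of 21. The part of this shift of all genes in the members' differences was not tested.

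**Figure D5:**
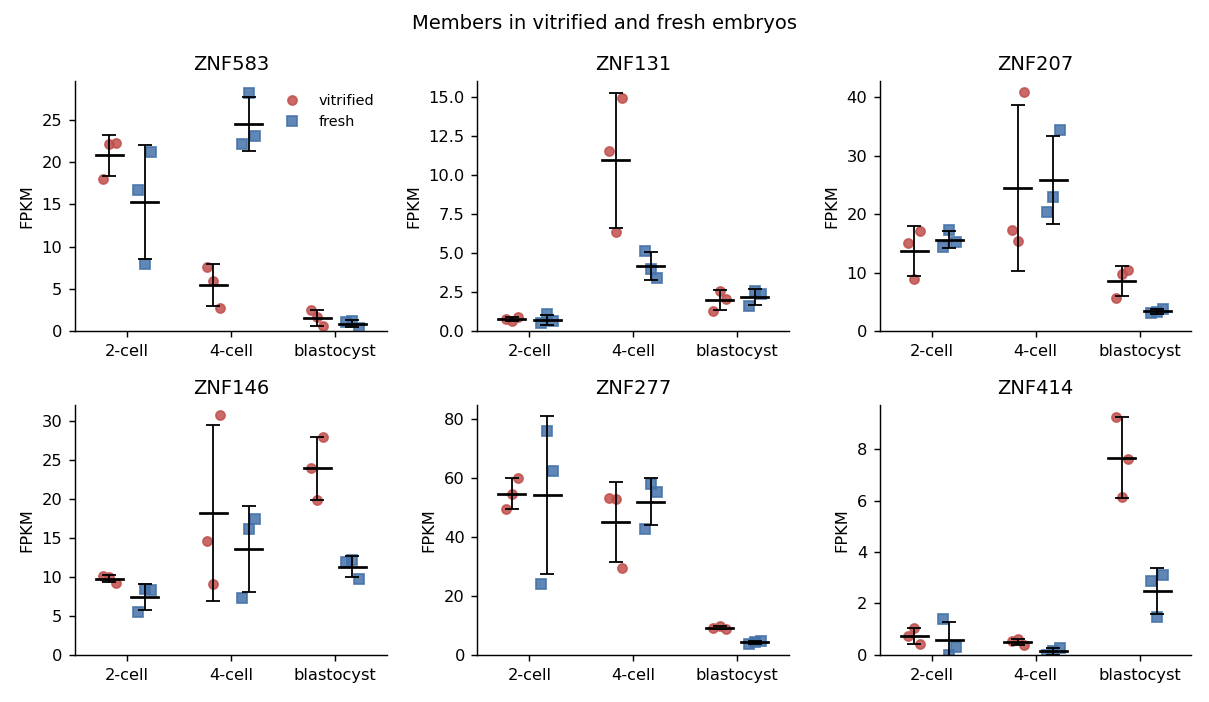
FPKM of 6 members by stage (points are libraries, vitrified at the left of each pair, black lines give the mean ± SD of 3 libraries). Vitrified and fresh points are apart at the 4-cell stage for ZNF583 and ZNF131, and in blastocysts for ZNF207, ZNF146, ZNF277 and ZNF414, which entered the set through its vitrified blastocysts.

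Among stages where a gene was tested, ZNF146 was the only member with vitrified libraries all above fresh ones at more than 1 stage. It had 10.1, 9.95 and 9.29 FPKM in vitrified and 5.45, 8.49 and 8.30 FPKM in fresh 2-cell embryos beside its blastocyst values. Such a pattern of like direction was shown by 1.51% of all genes. At the 4-cell stage the values of ZNF146 overlapped, with 14.6, 9.13 and 30.8 FPKM in vitrified and 7.32, 16.2 and 17.4 FPKM in fresh embryos. ZNF544, not tested in blastocysts, and ZNF414, not tested at the 4-cell stage, were also wholly higher in vitrified embryos there. ZNF544 was so at the 2-cell stage too, and ZNF414 in blastocysts. No member was separated in opposite directions at different stages where it was tested, against 2.4% of all genes. ZNF383, not tested in blastocysts, was wholly lower in vitrified 4-cell embryos. In blastocysts it was wholly higher in vitrified than in fresh embryos, with means of 0.782 and 0.527 FPKM. In a limma test of whether the vitrified to fresh difference itself differed between stages, no member reached an adjusted p under 0.05, against 0.0352% of all genes, and 6 of the 63 members tested had an unadjusted p under 0.05, against 8.2%. ZNF583 came closest (unadjusted p = 0.000229, limma adjusted p = 0.135).

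Among the other genes of the pathway, HDAC1 was the single corepressor of the list past the threshold, 1 of 12 tested in blastocysts against the 2.26% of all genes, with 23.1 ± 3.22 FPKM in vitrified and 9.02 ± 7.30 FPKM in fresh blastocysts (SD, n = 3 each, 1.49, SE 0.44, limma adjusted p = 0.187). None of 15 tested corepressors passed at the 2-cell or the 4-cell stage. Of the other zinc finger families, ZBTB43, 1 of 18 tested against 3.46% of all genes, was higher in vitrified 4-cell embryos (1.31, SE 0.47, limma adjusted p = 0.947) and ZFP2, 1 of 10 tested against 2.26%, in vitrified blastocysts (1.08, SE 0.27, limma adjusted p = 0.140, and 0.90 after quantile normalization).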

How the data were processed

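RNA of 18 pig embryo libraries was measured, 3 in each of 6 groups. The paper describes SMART-Seq libraries of whole embryos, while the GEO labels carry a protocol for small RNA libraries, and the values here are for genes. The authors trimmed reads with Cutadapt, aligned them with HISAT2 and estimated FPKM per gene with StringTie, and versions, genome build and annotation release are not given in the sources used here. The deposited FPKM values list an absent gene as 0.0001 and hold no step of whole reads. The sequencing totals of the study were not used here, and no counting interval is given. The tables also hold the authors' own fold changes, p-values and directions, which were not used.

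The 3 stage tables were joined by gene ID. The members and all gene lists were chosen with earlier results of these data known. log2(FPKM + 1) was fitted in limma 3.58.1 (R 4.3.3) with a variance trend across all genes, keeping genes at 1 FPKM or more in 3 libraries, within each stage for vitrified minus fresh and over all 18 libraries for stages. The scripts were tested on simulated data. Named members were those past the vitrified against fresh threshold, the 10 highest in mean, the 6 with the largest ratio of a stage mean to the next (1 FPKM added) at each stage, the 4 least variable, those separated in opposite directions, those at the edge of the rule, and the 3 most like the leading ones. ZNF354B, ZNF569, ZNF566, ZNF667 and further members of small counts were chosen for naming with their values in view. The alternatives tried were a pseudocount of 0.1, no filter or a mean of 5 FPKM, quantile and median ratio scaling, a replicate block, a joint or robust fit, and leaving out each library.

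Vitrified and fresh libraries of the same replicate number deviated from their group means with correlations of 0.22, 0.37 and 0.42 at the 4-cell stage, which counts as paired, of 0.03, -0.11 and 0.11 at the 2-cell stage and of 0.25, 0.05 and 0.00 in blastocysts, which do not. The pairing is not firm: vitrified 4-cell replicate 1 had 0.23 with fresh replicate 2, while the other unmatched 4-cell pairs were below 0. In blastocysts, vitrified replicate 3 had 0.30 with fresh replicate 2. The labels do not say what a replicate number shares.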

Additional observations from a re-analysis of the deposited data

How the results depend on the processing

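Of the members past the vitrified against fresh threshold, the 4-cell count of 2 became 4 with the replicate block and 5 in a single fit of all 18 libraries, and ranged between 1 and 6 with 1 library left out. The blastocyst count of 2 became 0 under quantile normalization and under median ratio scaling, 4 with a pseudocount of 0.1, and 1 to 3 with 1 library left out. The 2-cell count was 0, and 0 to 1 with 1 library left out. The replicate block changed no other count of members. ZNF583 passed under all 14 alternatives, ZNF131 under 9, and ZNF207 and ZNF146 under 10 each.

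Of all genes, 38 passed at the 2-cell stage (99 with a pseudocount of 0.1, 25 with no filter, 46 to 124 with 1 library left out), 303 at the 4-cell stage (146 among genes with a mean of 5 FPKM or more, 486 with the replicate block, 634 in a single fit, 171 to 739 left out) and 177 in blastocysts (363 with a pseudocount of 0.1, 167 to 303 left out). Scaling changed the directions: 87 higher and 216 lower at the 4-cell stage became 139 and 140 under quantile normalization and 144 and 136 under median ratio scaling, and 117 higher and 60 lower in blastocysts became 53 and 92 under both. The cause was not tested.

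Between 4-cell and 2-cell embryos the count of 0 members became 2 with a pseudocount of 0.1 (ZNF184 and ZNF567), 1 after quantile normalization (ZNF648), 2 in vitrified (ZNF648 and ZNF583) and 2 in fresh libraries alone (ZNF567 and ZNF24), and 0 to 5 with 1 library left out, the highest without vitrified 4-cell replicate 2. The 3 members past the threshold between blastocysts and 4-cell embryos stayed at 3 under the 24 alternatives. The 3 between blastocysts and 2-cell embryos, all lower, ranged between 2 and 3 in either direction, with 1 lower and 1 higher under both scalings. The 4 members highest in blastocysts became 7 after quantile normalization. A level of 2 FPKM gave 120 members and one of 10 FPKM gave 33. With 3 libraries a group and no read depth per gene in the values, small differences, above all at the wide-spread 4-cell stage, could not be detected.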
